A study of Mus musculus with 24 samples.

Results

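The cytosolic ribosomal protein genes were described across 4 groups of murine bone marrow LSKs (Lin-Sca-1+c-Kit+ cells, the fraction that holds hematopoietic stem and early progenitor cells). Members were the gene rows with a symbol of the Rpl or Rps series, with the stalk genes Rplp0, Rplp1 and Rplp2 and with Rpsa, and without pseudogene symbols and the Rps6k kinases. Of 24091 genes in the count table, 85 were members, 52 of the large and 33 of the small subunit. Bulk RNA-seq was done on 24 mice, with 6 mice (3 females and 3 males) per group. WT mice carried both copies of Mir142 and no transgene, and miR-142 KO mice lacked Mir142 (miR-142-/-). CP CML mice carried Mir142 and expressed BCR-ABL, the oncogenic kinase of chronic myelogenous leukemia (CML), and BC CML mice expressed BCR-ABL without Mir142, as models of chronic phase (CP) and blast crisis (BC). All mice were on the B6 background. The BCR-ABL transgene is switched on in cells that use the SCL promoter when tetracycline is withdrawn, and the CML LSKs were taken 2 weeks after that. The ages of the mice were not given in the sources used here. The Mir142 row held 94 to 127 reads in WT and 68 to 153 in CP CML libraries, and 0 in all 12 libraries of miR-142 KO and BC CML mice. A count of 0 allows up to 3 reads, and this limit covers counting error only.

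The cytosolic ribosome joins a small subunit, which reads the mRNA, to a large subunit, which forms the peptide bond. Each ribosomal protein is normally needed in the same number of copies, so the genes are usually strongly and evenly transcribed. Most of their mRNAs start with a C followed by a run of pyrimidines, the 5′ terminal oligopyrimidine (TOP) tract, through which mTORC1 and Larp1 control their translation. In marrow, loss of 1 copy of some of these genes causes Diamond-Blackfan anemia, a failure of red cell production. Ribosomal protein genes also have many processed pseudogenes, near-identical copies elsewhere in the genome, which bears on how their reads are counted.

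Start regions are shown for 10 members whose differences are described below, because the start base decides whether an mRNA is of the TOP kind. Each line gives 30 bases from RefSeq (build GRCm38.p6), 5′ to 3′, with 15 bases before the start. Capitals mark a TOP-like tract, here a C at the start base followed by at least 4 pyrimidines, up to the last of the run, or, where there is no such tract, the start base alone.
Rpl38 (chr11:114668565-114668594, plus strand): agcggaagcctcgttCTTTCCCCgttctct
Rpl15 (chr14:18270972-18271001, minus strand): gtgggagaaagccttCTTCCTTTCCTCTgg
Rps27 (chr3:90213634-90213663, minus strand): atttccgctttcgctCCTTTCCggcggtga
Rps6 (chr4:86857353-86857382, minus strand): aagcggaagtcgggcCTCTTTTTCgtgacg
Rpl31 (chr1:39367836-39367865, plus strand): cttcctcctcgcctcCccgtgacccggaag
Rpl27a (chr7:109519180-109519209, plus strand): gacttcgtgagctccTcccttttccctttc
Rps7 (chr12:28635939-28635968, minus strand): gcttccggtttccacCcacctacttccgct
Rps13 (chr7:116334176-116334205, minus strand): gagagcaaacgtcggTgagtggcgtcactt
Rps25 (chr9:44407699-44407728, plus strand): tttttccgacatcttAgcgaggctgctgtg
Rps27l (chr9:66946071-66946100, plus strand): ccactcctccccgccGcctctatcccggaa
The first 4 begin with such a tract, of 8, 13, 7 and 9 bases, and the other 6 do not at the start RefSeq lists first. Of these 6, Rpl27a starts with a T inside an unbroken pyrimidine run that begins upstream of it, which the C rule does not count at that base. RefSeq starts were found for 64 of the 85 members. The tract lay exactly at a listed start in 14 of the 64 (21.9%), against 3.01% of all 27025 genes with a listed start, searched on the sense strand only. Within 5 bases of the start it was found in 46.9% of members and 21.2% of all genes. A match is a description of these letters, and a start annotated a few bases off would miss the tract.

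The ribosomal protein genes together took up a small and nearly equal share of the counted reads in every group. Their summed share was lowest at 1.56%, with a median of 1.59% and a highest value of 1.72%, in WT libraries. These 3 values were 1.50%, 1.57% and 1.68% for miR-142 KO libraries. They were 1.50%, 1.58% and 1.75% with both BCR-ABL and the loss of Mir142 (BC CML), and 1.52%, 1.58% and 1.69% with BCR-ABL alone (CP CML). The ranges of all 4 groups overlapped. The large subunit made up 0.904% ± 0.0409 (SD, n = 24) and the small subunit 0.696% ± 0.0357 of the reads. The mean small-subunit share was 0.728% ± 0.0287 in WT, 0.694% ± 0.0279 in CP CML, 0.682% ± 0.0283 in miR-142 KO and 0.678% ± 0.0400 for BC CML (SD over 6 mice), again with overlapping ranges. The ratio of the mean share between groups was 0.966 for miR-142 KO to WT and 0.998 for BC CML to CP CML. After TMM scaling, which corrects each library for its composition, these ratios were 1.01 and 1.04, so the direction of so small a difference was set by the scaling. Fewer cells of a type and less RNA per cell cannot be told apart in bulk samples.

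**Figure D1:**
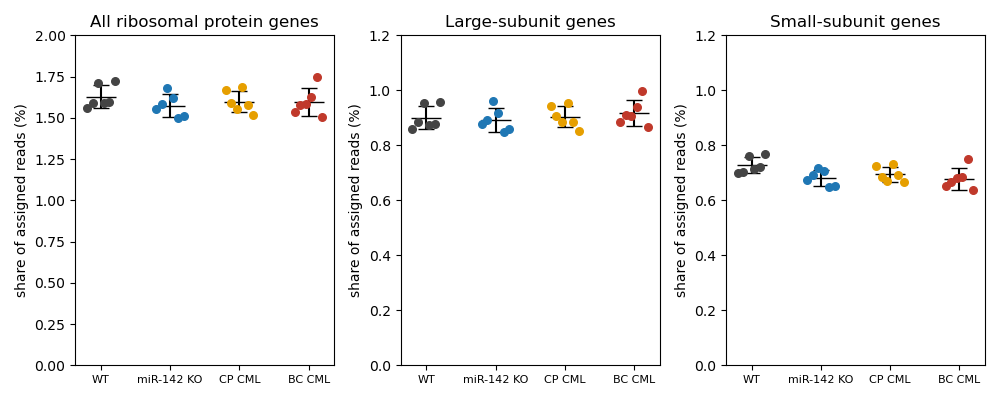
Share of counted reads (y axis, %) on all 85 ribosomal protein genes, on the large-subunit genes and on the small-subunit genes, in the 4 groups of LSKs (x axis). Points are mice and bars give mean ± SD of 6. All libraries lie between 1.50% and 1.75% for the whole set, and the groups overlap in each panel.

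Total counts ranged from 16267965 to 24687077 per library, and no pair of libraries in a group was alike within counting noise. The LSK label was checked with 7 markers (Kit, Ly6a, Cd34, Procr, Mecom, Hlf and Slamf1), all tested, with a summed level of 2064 to 3318 CPM (read counts scaled to library size) over the 24 libraries. Single markers of this list differed between groups, which the sum does not show. At an adjusted p below 0.05, 1 was higher and 5 lower in CP CML against WT, against 22.5% and 22.8% of all genes tested. In BC CML against CP CML, 1 was higher and 4 lower, against 20.2% and 17.5%. Hlf lay between 313 and 674 CPM in WT and between 108 and 175 in BC CML. Ly6a lay between 30.7 and 49.5 CPM in WT and between 94.3 and 135 in BC CML. Lists of markers of other cells also moved with the groups. The 6 markers of mast cells and basophils summed to 4204 to 8952 CPM in BC CML, 1486 to 2918 in CP CML, 224 to 2610 in miR-142 KO and 80.5 to 569.9 in WT LSKs, led by Cpa3 at 44.7 to 109 CPM in WT and 2411 to 5566 in BC CML. The 9 neutrophil markers summed to 5588 to 8122 CPM in BC CML, 4312 to 7357 in CP CML, 2599 to 7487 in miR-142 KO and 1257 to 4796 in WT. Mpo led this sum, at 1033 to 3790 CPM in WT and 1397 to 5118 in miR-142 KO. In BC CML against miR-142 KO, 2 of these 9 were higher and 5 lower, against 20.2% and 19.1% of all genes tested. Their median log2 fold change there was -1.76. Ltf lay between 0.442 and 19.7 CPM in miR-142 KO and between 0.0453 and 0.766 in BC CML. The 6 erythroid markers found summed to 48.8 to 109 CPM in WT and 2.46 to 7.62 in BC CML. The B and plasma cell list of 9 genes reached 957 CPM in WT and no more than 45.7 in miR-142 KO and 40.1 in BC CML LSKs. The part of these cells in the results below was not tested. No defining marker was at 0 in every library.

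The counted level differed between members far more than between groups. Per kilobase of the deposited gene length, and as a mean over 24 libraries, it ran from 1737 ± 130 CPM per kb (SD) for Rpl4, a core protein of the large subunit, down to under 0.02 for Rpl26 and Rpl10l. Other members with high levels were Rpl8 (1180 ± 105), Rps14 (783 ± 47.1), the stalk gene Rplp1 (725 ± 67.9), Rpl32 (676 ± 37.0), Rps26 (601 ± 53.5), Rps15 (572 ± 32.5) and Rplp0 (541 ± 42.1). From Rps14 on, neighbours among those named differed by less than the larger of their SDs, apart from the step from Rpl32 to Rps26. The median member had 66.0 CPM per kb. The 10 members with the most counts held 57.6% of all reads on the set, and Rpl4 alone held 15.3%.

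This order ran against the share of each mRNA that other genes also hold. HTSeq by default leaves out reads that map to more than 1 place, so reads that fit a pseudogene as well would be lost. Whether that default was used is not given in the sources used here. For each member, all stretches of 101 bases (1 read length) of a model mRNA were searched in every other annotated gene (GENCODE M21, GRCm38). Rps3, Rps21, Rpl32 and Rpl22 shared none. Rpl4 shared 5.0%, Rpl38 46.1%, Rps13 77.5%, Rpl10 91.6% and Rps27 98.4% of its stretches. Over the 81 tested members the rank correlation (Spearman) of level per kb with the shared percentage was -0.52, a description across genes of the same libraries, which are not independent. The 35 members that shared over 50% had a median of 19.7 CPM per kb, and the 15 tested members that shared at most 10% had 278. Low levels also occurred with little shared sequence, as in the small-subunit genes Rps29 (1.84 CPM per kb at 24.5% shared) and Rps4l (7.33 at 1.9%) and the muscle-type paralog Rpl3l (0.369 at 0%). With that default, a level here would count uniquely placed reads only. The part of lost reads in the levels and in differences between groups was not tested. The search took single stretches of 1 model mRNA per gene, so read pairs and other exons of the gene were not covered.

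**Figure D2:**
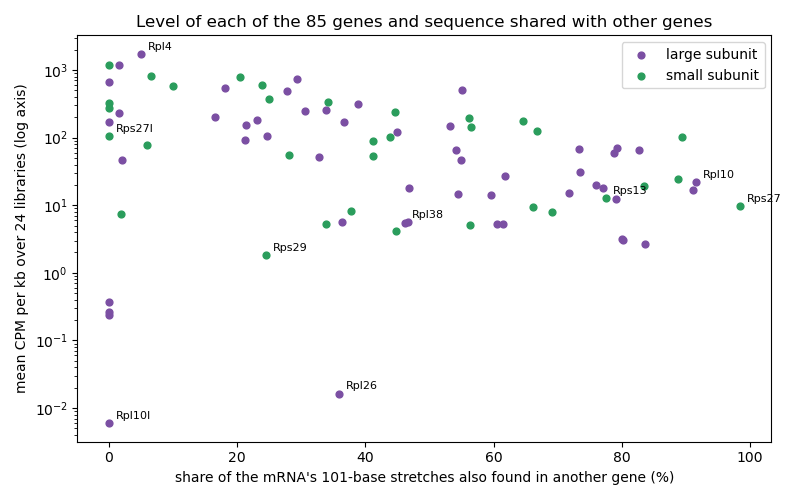
Mean CPM per kb over 24 libraries (y axis, log scale) against the share of the mRNA's 101-base stretches that also occur in another annotated gene (x axis, %), 1 point per member, by subunit. Members with over 50% shared have a median of 19.7 CPM per kb, and the low points at the left are paralogs and other genes with few reads.

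Of the 85 members, 81 passed the filter on low counts and were tested with all 13520 genes that passed. The 4 that did not were Rpl26 (0 to 2 reads per library, 35.9% shared), Rpl10l (0 to 1), a retrogene, Rpl32l (0 to 8) and Rpl39l (0 to 13). Rpl26 and Rpl10l were at or under the limit of 3 reads in every library, so no difference was detectable at this depth. The spread within groups set the precision. The median SD of a member in log2 CPM was between 0.105 (BC CML) and 0.124 (miR-142 KO), against 0.134 (BC CML) to 0.178 (miR-142 KO) over all tested genes.

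The question of the BC CML to CP CML comparison was what loss of miR-142 changes in LSKs that express BCR-ABL. Few ribosomal protein genes were called, and by small folds. At an adjusted p below 0.05, 9 of 81 members were higher (11.1%) and 3 lower (3.7%), against 20.2% higher and 17.5% lower of all genes tested. The median log2 fold change was 0.03 over the members and 0.01 over all genes, and 67 of 81 members lay within 0.2 of 0. The split of 9 higher and 3 lower was 7 and 4 with RLE size factors, 6 and 4 with scaling factors computed without the members, 8 and 5 with DESeq2, and 4 and 7 with upper quartile scaling. The 9 became 4 or 5 without any 1 of BC CML replicates 1, 2, 4 and 5, CP CML replicates 2, 3, 5 and 6, miR-142 KO replicate 6 and WT replicates 2, 4 and 5. The 3 became 5 or 6 without BC CML replicate 2, CP CML replicate 2 or miR-142 KO replicate 3 or 5. Among members that share at most 10% of their mRNA, 3 of 15 were higher and 0 lower, with 46.7% of the 15 and 46.7% of all genes at an unadjusted p below 0.05. Short genes had slightly higher medians in general. Tested genes under 1 kb that are no members had a median of 0.11 and those of 2 kb and over of -0.00396, and 54 of the 81 members are under 1 kb. The part of gene length was not tested.

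The called members whose groups did not overlap were Rps27l, Rpl31, Rpl27a and Rpl7, which were higher, and Rps27, which was lower. Rpl31 and Rpl27a encode large-subunit proteins, Rpl31 at the rim of the peptide exit tunnel. Rpl31 lay between 18.5 and 20.8 CPM (median 19.8) in CP CML and between 22.4 and 26.8 (median 24.8) in BC CML libraries, without overlap. Its log2 fold change was 0.34 (SE 0.07, adjusted p = 0.000867). Rpl27a lay between 48.0 and 51.1 CPM (median 49.3) in CP CML and between 55.7 and 67.8 (median 61.0) in BC CML, also without overlap (log2 fold change 0.31, SE 0.05, adjusted p = 8.80e-05). In both genes every BC CML mouse was above every CP CML mouse. Rps27, the small-subunit zinc finger protein S27, went the other way, from 5.68 to 7.62 CPM (median 6.19) in CP CML to 4.20 to 5.44 (median 4.62) in BC CML. It was called lower by 0.44 on the log2 scale (log2 fold change -0.44, SE 0.12, adjusted p = 0.00616). Of the stretches of its model mRNA, 98.4% are shared with other genes. That model has 345 bases, and the annotated exons of the gene cover 1043. Rpl7 was higher without overlap at 472 to 512 against 400 to 461 CPM (log2 fold change 0.17, adjusted p = 0.00673). The calls of Rps27l, Rpl31, Rpl27a, Rpl7, Rps27 and Rps13 held under all 9 alternative settings and with each of the 24 libraries left out. The calls of Rpl11, Rpl22, Rpl35a, Rpl41, Rps15 and Rps27a, with adjusted p from 0.0180 to 0.0495, did not, and Rpl35a lost its call in 31 of 33 such fits.

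**Figure D3:**
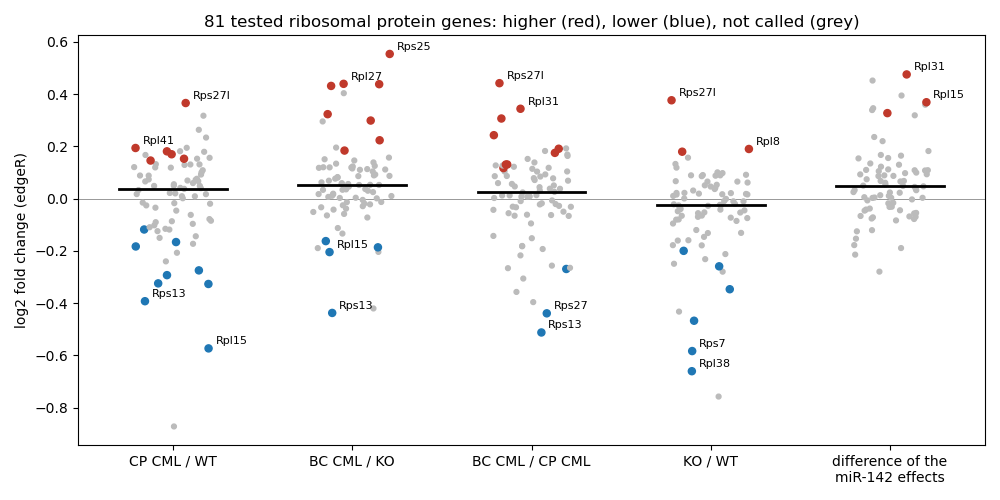
Log2 fold change (y axis) of the 81 tested ribosomal protein genes in 4 comparisons of groups and in the difference of the miR-142 effects (x axis). Red points were called higher, blue points lower and grey points were not called, black lines are medians, and the outermost called genes are named. Most points lie within 0.2 of 0, and the medians lie between -0.02 and 0.05.

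In LSKs without BCR-ABL, miR-142 KO against WT, 3 of 81 members were higher (3.7%) and 6 lower (7.41%), against 19.8% and 16.3% of all genes. The median log2 fold change was -0.02 over the members and 0.01 over all genes. With upper quartile scaling the split was 2 higher and 11 lower. Of the lower members, 4 belong to the small subunit. Rps7, which has a part in early processing of the small-subunit rRNA, lay between 8.33 and 11.5 CPM (median 9.51) in WT and between 5.18 and 7.65 (median 6.55) in miR-142 KO libraries. The groups did not overlap, and the log2 fold change was -0.58 (SE 0.13, adjusted p = 0.00123). Rpl38, a large-subunit protein known for its part in the translation of Hox mRNAs in the embryo, lay between 2.01 and 2.50 CPM (median 2.32) in WT and between 1.06 and 1.95 (median 1.43) in miR-142 KO, again apart. Its log2 fold change of -0.66 (SE 0.18, adjusted p = 0.00661) rested on 25 to 61 reads per library over the series. Rps25, needed for translation from some internal entry sites, lay between 36.3 and 43.9 CPM in WT and 27.7 and 39.2 in miR-142 KO (log2 fold change -0.35, SE 0.08, adjusted p = 0.00241), with some overlap. Of the higher members, Rpl8, at the peptidyl transferase center, changed by 0.19 (SE 0.05, adjusted p = 0.00795) and held under every setting and omission. Rpl7a (log2 fold change 0.18, adjusted p = 0.0313) was not called without miR-142 KO replicate 3, WT replicate 1 or WT replicate 2, with upper quartile scaling or with the 12 libraries compared alone, where its adjusted p reached 0.107.

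BC CML to CP CML and miR-142 KO to WT share no libraries. Among members called higher they had 1 in common, Rps27l, which is 11.1% of the first list and 33.3% of the second. Among members called lower they also had 1 in common, Rps13, 33.3% of the first and 16.7% of the second. Over all genes tested, the calls in common were 56.7% and 57.9% of the 2 lists of higher genes and 54.5% and 58.4% of the lists of lower genes. Rps7, Rps25 and Rpl38, lower in miR-142 KO, were not called in BC CML against CP CML, where their log2 fold changes were -0.27 (adjusted p = 0.113), 0.01 (adjusted p = 0.924) and -0.27 (adjusted p = 0.255). The difference of these effects was itself not called for Rps7 (0.32, adjusted p = 0.364), Rps25 (0.36, adjusted p = 0.0914) or Rpl38 (0.39, adjusted p = 0.425).

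The miR-142 effect differed with BCR-ABL for 3 large-subunit genes. In the test of the difference of effects, the effect in BCR-ABL LSKs less that in LSKs without it, 3 of 81 members were higher (3.7%) and 0 lower, against 1.87% and 2.02% of all genes, with a median of 0.05 over the members and -0.00162 over all genes. At an unadjusted p below 0.05 there were 7 members higher (8.64%) and 0 lower, against 9.25% and 9.9% of all genes, and the likelihood ratio test and DESeq2 also called 0 lower. Rpl31 differed by 0.48 (SE 0.11, adjusted p = 0.0122), with 0.34 in BCR-ABL LSKs and -0.13 (adjusted p = 0.175) in the others. Rpl27a differed by 0.33 (SE 0.08, adjusted p = 0.0157), from 0.31 and -0.02. Rpl15, an early-assembling protein of the large subunit, differed by 0.37 (SE 0.10, adjusted p = 0.0307), from 0.17 (adjusted p = 0.0554) and -0.20 (adjusted p = 0.0239). The call for Rpl15 was lost when any 1 of 16 of the 24 libraries was left out, with an adjusted p of up to 0.0863. These 3 genes share 71.8%, 32.8% and 73.4% of their stretches with other genes, and 0 of the 15 members that share at most 10% were called. In all 3 genes the CP CML libraries were the lowest group, as the plot of single genes by mouse shows.

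**Figure D4:**
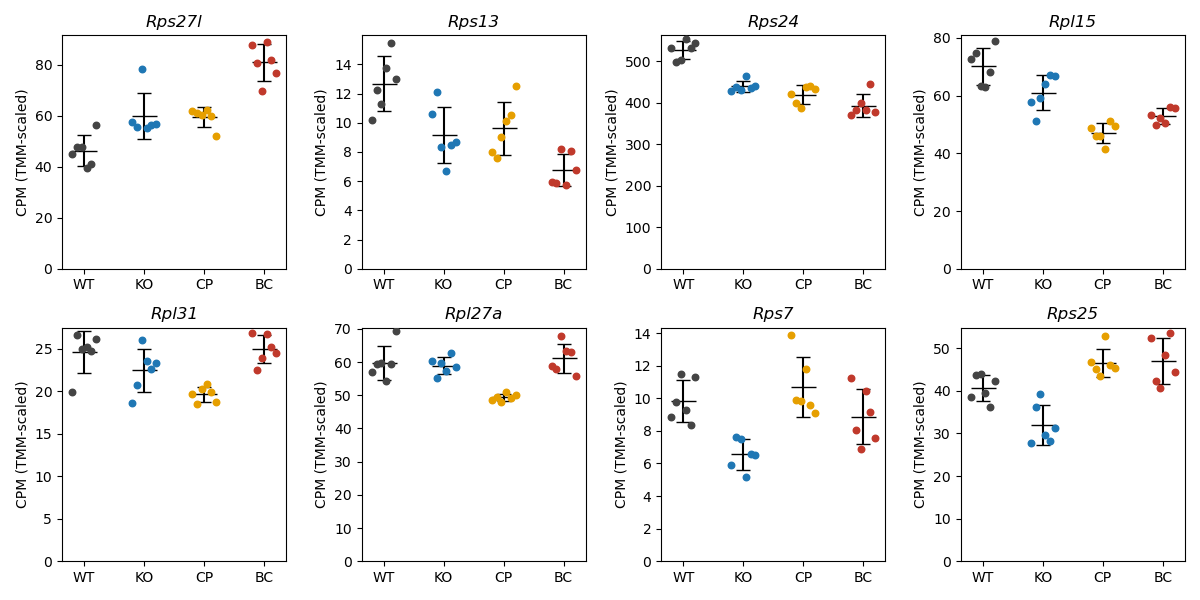
TMM-scaled CPM (y axis, from 0) of 8 ribosomal protein genes by group (x axis: WT, KO for miR-142 KO, CP for CP CML, BC for BC CML). Points are mice and bars give mean ± SD of 6. Rps27l is lowest in WT and highest in BC CML, Rps13 runs the other way, Rpl31 and Rpl27a are lowest in CP CML, and Rps7 and Rps25 are lowest in miR-142 KO.

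BCR-ABL was addressed by CP CML against WT and by BC CML against miR-142 KO, which share no libraries. In CP CML, 6 of 81 members were higher (7.41%) and 9 lower (11.1%), against 22.5% and 22.8% of all genes, and the median was 0.04 against -0.02. The split was 9 higher and 8 lower with scaling factors computed without the members, and 3 and 14 with upper quartile scaling. The 6 became 10 to 13 without BC CML replicate 3, CP CML replicate 3 or 6, miR-142 KO replicate 3 or WT replicate 3, and 3 without WT replicate 1. The 9 became 5 without CP CML replicate 2 or 3. In BC CML against miR-142 KO, 8 members were higher (9.88%) and 4 lower (4.94%), against 20.2% and 19.1%, and the median was 0.05 against -0.02. That count of 8 was 21 without miR-142 KO replicate 3. In this library the members' median deviation from the group mean was 0.14 on the log2 scale, the highest of its group. The 2 comparisons had 3 higher members in common (Rpl41, Rps2 and Rps27l), 50% and 37.5% of the lists, and 4 lower (Rpl15, Rpl39, Rps13 and Rps24), 44.4% and 100% of them. Over all genes tested these shares were 62.8% and 69.7% for higher and 49.9% and 59.3% for lower calls.

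Rpl15 was the member most reduced in CP CML among those called. It lay between 62.9 and 79.0 CPM (median 70.4) in WT and between 41.4 and 51.2 (median 47.4) in CP CML libraries, well apart. The log2 fold change was -0.57 (SE 0.07, adjusted p = 9.65e-07). In BC CML against miR-142 KO it was -0.20 (SE 0.07, adjusted p = 0.0203), with BC CML at 49.7 to 56.1 CPM (median 52.8) and miR-142 KO at 51.1 to 67.1 (median 61.7). Rps24, a small-subunit gene mutated in Diamond-Blackfan anemia, was lower in CP CML (387 to 440 CPM, median 426) than in WT (498 to 553, median 532), with no overlap. Its log2 fold change was -0.33 (SE 0.05, adjusted p = 7.27e-06), and it was -0.16 (SE 0.05, adjusted p = 0.00719) in BC CML against miR-142 KO and -0.26 (SE 0.05, adjusted p = 0.000102) in miR-142 KO against WT. WT was thus the highest group for Rps24, above every other library. Rpl22, bound by a viral RNA and dispensable for the ribosome, was lower in CP CML (371 to 411 CPM) than in WT (428 to 470), a log2 fold change of -0.17 (SE 0.04, adjusted p = 0.00116). Rps6, the target of the S6 kinases, was lower in CP CML (log2 fold change -0.29, adjusted p = 0.0171), a call lost without any 1 of CP CML replicates 1, 2, 3 and 4 and WT replicates 2 and 6, with an adjusted p of up to 0.0675.

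Rps25 and Rps7, low in miR-142 KO, were higher in BC CML than in miR-142 KO. Rps25 lay between 40.7 and 53.5 CPM (median 46.5) in BC CML, above all miR-142 KO libraries (log2 fold change 0.55, SE 0.08, adjusted p = 3.15e-05). Rps7 lay between 6.91 and 11.2 CPM (log2 fold change 0.44, SE 0.13, adjusted p = 0.0113). Rpl41, which encodes a tiny, very basic peptide at the bridge of the subunits, was higher by 0.32 (SE 0.07, adjusted p = 0.00118), at 114 to 134 against 87.5 to 119 CPM. Rplp1 rose by 0.22 (SE 0.06, adjusted p = 0.00647) and Rps2 by 0.18 (SE 0.06, adjusted p = 0.0172), the latter not without BC CML replicate 4 or miR-142 KO replicate 5. Rpl27 (log2 fold change 0.44, adjusted p = 0.0337) was counted with 56 to 140 reads per library. Its call was lost with the 12 libraries compared alone and without any 1 of BC CML replicates 2, 4 and 5 and miR-142 KO replicates 1, 2, 4 and 5, with an adjusted p of up to 0.121.

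Rps27l and Rps13 were called in all 4 comparisons of groups, the other members in 3 or fewer, and 53 of 81 in 0. Of the members 2.47% were called in all 4 and 65.4% in 0, against 8.18% and 24.9% of all genes tested. Rps27l is the paralog of Rps27, and its human counterpart is a known p53 target. It shared none of its stretches with other genes. It lay between 39.4 and 56.3 CPM (median 46.5) in WT, 52.0 and 62.3 (median 60.8) in CP CML, 55.4 and 78.4 (median 56.6) in miR-142 KO, and 69.7 and 89.1 (median 81.3) in BC CML libraries. Every BC CML library was above every CP CML library, while the other groups compared overlapped. The log2 fold change was 0.38 (SE 0.09, adjusted p = 0.00168) for miR-142 KO to WT, 0.37 (SE 0.09, adjusted p = 0.00178) for CP CML to WT, 0.44 (SE 0.09, adjusted p = 0.000342) for BC CML to CP CML and 0.43 (SE 0.09, adjusted p = 0.000586) for BC CML to miR-142 KO. Its difference of effects was 0.07 (SE 0.12, adjusted p = 0.831). These calls held under every alternative and omission.

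Rps13, a small-subunit gene, ran the other way. It lay between 10.2 and 15.5 CPM (median 12.6) in WT, 7.60 and 12.5 (median 9.58) in CP CML, 6.67 and 12.1 (median 8.60) in miR-142 KO, and 5.76 and 8.17 (median 6.36) in BC CML libraries. All neighbouring groups overlapped. The log2 fold change was -0.47 (SE 0.14, adjusted p = 0.0124) for miR-142 KO to WT, -0.39 (SE 0.14, adjusted p = 0.0276) for CP CML to WT, -0.51 (SE 0.14, adjusted p = 0.00707) for BC CML to CP CML and -0.44 (SE 0.14, adjusted p = 0.0193) for BC CML to miR-142 KO. The call in CP CML was lost without any 1 of CP CML replicates 1, 2 and 3 and WT replicates 4 and 5 (adjusted p of up to 0.0905). The call in BC CML against miR-142 KO was lost without miR-142 KO replicate 2 (0.0593). With 77.5% of its stretches shared, Rps13 had 126 to 370 reads per library.

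Among the other paralogs, Rpl7l1, a homolog of Rpl7 that acts in ribosome assembly, was higher in BC CML than in miR-142 KO (log2 fold change 0.30, SE 0.07, adjusted p = 0.00277) at 147 to 179 against 119 to 161 CPM. Rpl22l1, which can stand in for Rpl22, was not called in any comparison of groups, with log2 fold changes from -0.12 to -0.02 and SEs of 0.10. Rpl3l was expressed at 0.141 to 1.72 CPM and was not called, with log2 fold changes from -0.87 to -0.31 and SEs of about 0.5. Rps4l was not called either, at -0.43 (adjusted p = 0.0581) for miR-142 KO to WT and -0.40 (adjusted p = 0.0828) for BC CML to CP CML. Of the parents, Rpl3 was higher in CP CML than in WT (log2 fold change 0.15, adjusted p = 0.0307), a call lost without CP CML replicate 4 or WT replicate 1 or 2, with no filter on low counts and with upper quartile scaling. Rpl10 stayed between 13.8 and 22.9 CPM in all libraries and was not called.

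The stalk genes recruit elongation factors to the ribosome. Rplp0 was higher in CP CML (700 to 812 CPM) than in WT (634 to 756), a log2 fold change of 0.17 (SE 0.06, adjusted p = 0.0151), and Rplp2 was not called in any comparison of groups. Of 11 members mutated in Diamond-Blackfan anemia or lost in the 5q- syndrome, 10 were tested. In BC CML against CP CML 2 were higher and 0 lower, with 0 and 2 in miR-142 KO, 0 and 1 in CP CML against WT and 1 and 1 in BC CML against miR-142 KO. For 10 genes these are small counts, and 2 of 10 is close to the 20.2% of all genes called higher in BC CML against CP CML. Rps19, the gene most often mutated in that anemia, had 129 ± 11.4 CPM (SD, n = 6) in BC CML, 128 ± 6.97 in CP CML, 131 ± 5.59 in miR-142 KO and 131 ± 7.35 in WT LSKs. Rps14, the gene of the 5q- syndrome, had 463 ± 34.3, 459 ± 26.3, 453 ± 24.9 and 479 ± 25.2 CPM in the same order. Neither was called.

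Sex made no called difference. Between male and female mice, with the group in the model, 0 of 81 members were higher and 0 lower, against 0.325% and 0.34% of all genes. At an unadjusted p below 0.05, 7 members were higher in males (8.64%) and 0 lower, against 8.68% and 8.38% of all genes, and DESeq2 and the likelihood ratio test called 0. The members on the X chromosome were Rpl10, Rpl36a, Rpl39 and Rps4x. Of these, Rpl39 was lower in CP CML than in WT (log2 fold change -0.18, SE 0.06, adjusted p = 0.0226) and in BC CML than in miR-142 KO (log2 fold change -0.19, SE 0.06, adjusted p = 0.0236). Over 33 fits with another setting or a library left out, the first call was lost in 8 and the second in 0. Rps4x was also called lower in CP CML than in WT (log2 fold change -0.12, adjusted p = 0.0272), a call lost in 15 of the 33.

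Most genes that build ribosomes were higher in both groups with BCR-ABL, beside the mixed calls of the ribosomal proteins themselves. Of 58 tested ribosome biogenesis genes, 53 were higher and 0 lower in CP CML than in WT, with a median log2 fold change of 0.39, and 48 were higher and 0 lower in BC CML than in miR-142 KO, with a median of 0.32. Of 47 translation factor genes, 33 and 34 were higher and 1 was lower in each, with medians of 0.27 and 0.25. Of 21 other TOP mRNAs 9 and 8 were higher and 0 lower. Of 15 genes of RNA polymerase I, which makes rRNA, 6 were higher in each comparison, with 1 lower in CP CML and 0 lower in BC CML. In BC CML against miR-142 KO the 8 became 5 without BC CML replicate 3 or 5 or miR-142 KO replicate 1 or 2, and the 6 became 3 without BC CML replicate 2. The members' own medians in these comparisons were 0.04 and 0.05, on the same scale. All-gene shares were 22.5% higher and 22.8% lower in CP CML against WT, and 20.2% and 19.1% in BC CML against miR-142 KO. The same lists were also counted for the loss of miR-142. In miR-142 KO against WT 7 biogenesis genes were higher and 0 lower (median 0.11), and in BC CML against CP CML 1 was higher and 2 lower (median 0.02). For translation factors these counts were 14 and 1 (median 0.14), and 7 and 2 (median 0.10). All-gene shares were 19.8% higher and 16.3% lower in miR-142 KO against WT, and 20.2% and 17.5% in BC CML against CP CML.

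**Figure D5:**
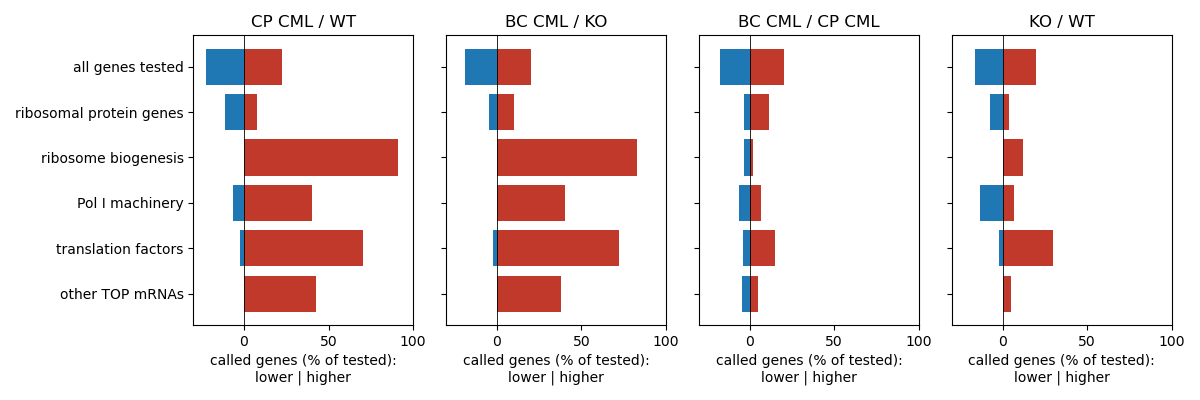
Percent of tested genes called higher (red, right of 0) and lower (blue, left of 0) on the x axis, for all genes tested, the ribosomal protein genes and 4 lists of other translation genes (y axis), in 4 comparisons. In CP CML against WT, 53 of 58 ribosome biogenesis genes were higher, while 6 of 81 ribosomal protein genes were.

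Bop1 and Bysl, which mature the rRNA of the large and of the small subunit, rose by 0.65 (SE 0.12, adjusted p = 0.000126) and 0.66 (SE 0.13, adjusted p = 0.000282) in CP CML against WT. Nle1, a large-subunit assembly factor, rose by 0.53 (SE 0.06, adjusted p = 9.57e-07) in the same comparison and by 0.22 (SE 0.06, adjusted p = 0.00959) in miR-142 KO against WT. Riok2, a kinase of late small-subunit assembly, was called lower in BC CML against CP CML (log2 fold change -0.30, SE 0.07, adjusted p = 0.00135). Of the factors, Eif3b rose by 0.51 (SE 0.08) in CP CML and by 0.36 (SE 0.08) in miR-142 KO against WT.

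Of 24 tested genes of mTORC1 and Myc control, 7 were higher and 6 lower in CP CML against WT, 6 and 5 in BC CML against miR-142 KO, 7 and 1 in miR-142 KO against WT and 4 and 1 in BC CML against CP CML. The all-gene shares for these comparisons lie between 16.3% and 22.8% in each direction, and these are small counts. Larp1, which binds the TOP tract, was higher in CP CML than in WT by 0.60 (SE 0.08, adjusted p = 6.57e-06), in BC CML than in miR-142 KO by 0.30 (SE 0.08, adjusted p = 0.00629) and in miR-142 KO than in WT by 0.32 (SE 0.08, adjusted p = 0.00421). Eif4ebp1, the mTORC1-regulated repressor of eIF4E, was higher by 0.38 in CP CML against WT (SE 0.08, adjusted p = 0.000930) and by 0.32 in BC CML against miR-142 KO. Akt1s1, an inhibitory partner of mTORC1, was higher by 1.03 (SE 0.05, adjusted p = 1.97e-14) in BC CML against CP CML and by 0.79 (SE 0.05, adjusted p = 3.55e-12) in miR-142 KO against WT. Rheb, the activator of mTORC1, was higher by 0.49 (SE 0.06, adjusted p = 1.83e-06) and 0.33 (SE 0.06, adjusted p = 0.000192). Mlst8, a subunit of mTORC1, was lower in miR-142 KO against WT (log2 fold change -0.18, SE 0.06, adjusted p = 0.0124), and Mnt, a repressor that opposes Myc, was lower in BC CML against CP CML (log2 fold change -0.24, SE 0.06, adjusted p = 0.00330). Mtor was higher in miR-142 KO against WT (0.26, SE 0.06, adjusted p = 0.00273), and Myc, a driver of ribosome production, was not called, with log2 fold changes from -0.22 to 0.20 (SE 0.11).

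Of 15 tested p53 targets, 1 was higher and 4 were lower in miR-142 KO against WT, 1 and 5 in CP CML against WT, 4 and 0 in BC CML against CP CML and 5 and 1 in BC CML against miR-142 KO. The all-gene shares given above for these comparisons lie between 16.3% and 22.8% in each direction. Rps27l, which is not in this list, was called higher in all 4. The 1 higher target in miR-142 KO and in CP CML against WT was Pmaip1, the cell death gene Noxa (log2 fold changes 2.27, SE 0.44, adjusted p = 0.000408, and 1.94, SE 0.44, adjusted p = 0.00136). Eda2r was lower by 1.54 on the log2 scale in miR-142 KO against WT (log2 fold change -1.54, SE 0.29, adjusted p = 0.000219) and higher by 1.10 in BC CML against CP CML (SE 0.28, adjusted p = 0.00364). Cdkn1a, the cell cycle inhibitor p21, was not called in any of the 4, with log2 fold changes from 0.16 to 0.49 (SE 0.32), nor was Trp53 itself (-0.09 to 0.06, SE 0.05).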

How the data were processed

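LSK transcriptomes of 24 mice, 6 per group, were analysed, and the study's methods give n = 5. The authors deposited raw read counts for each gene, made with Trimmomatic, STAR 2.6.0 (mm10) and HTSeq 0.11.1. The annotation and strand setting are not given in the sources used here, so reads of overlapping genes cannot be assigned with certainty. Precision follows from total counts of 16267965 to 24687077 per library. Gene length in kilobases, a further column, is the deposited value and its ratio to counts gave levels per kb. Members, lists and named genes were chosen with earlier results of these data known. Named members were the 10 with the highest level (some are not reported here), paralogs with parents, stalk, marrow failure and X-linked genes, members not tested, and up to 5 called per direction and comparison. Named genes of the other lists were up to 3 per list and direction by smallest p, with Myc, Mtor, Larp1, Eif4ebp1, Trp53 and Cdkn1a. A few further members were named after their values were seen, as examples of levels, shared sequence or calls.

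All 24 libraries were fitted in edgeR 4.0.16 (R 4.3.3) with TMM, filterByExpr, robust quasi-likelihood tests and Benjamini-Hochberg adjustment over 13520 genes, with a threshold of 0.05. CPM are TMM-scaled. On simulated counts with 200 changed genes the test called most of them. Only well-counted genes were changed there, by folds larger than those of most members. How often differences as small as those of most members would be called was thus not measured. Alternatives were the likelihood ratio test, DESeq2 1.42.0, other scalings and filters, sex as a covariate, the 12 libraries compared alone, and each mouse left out. The labels number no replicates, so replicate numbers only name mice. Whether mice shared a litter or batch is not stated, and the p-values measure the spread between these mice.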

Additional observations from a re-analysis of the deposited data

Results flagged for a closer look

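The test of the difference of effects set 3 members apart, with Rpl31 at 0.48 (adjusted p = 0.0122), Rpl27a at 0.33 (adjusted p = 0.0157) and Rpl15 at 0.37 (adjusted p = 0.0307), on the log2 scale. For each, the signed log2 fold change on loss of Mir142 was higher in LSKs with BCR-ABL than in those without. For Rpl15 it was 0.17 (not called) with BCR-ABL and -0.20 (called lower) without, so the sign differed and the size was not larger.

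Single mice stood far from the other 5 of their group in 14 of 180 groups of values examined, by a gap of over 0.625 of the group's range, and chance sets apart about 1 group in 20. In miR-142 KO replicate 3, Rps27l was at 78.4 CPM against 55.4 to 57.7 in the others, Rplp0 at 814 against 675 to 725 and Rpl4 at 2755 against 2259 to 2442. In CP CML replicate 6, Rps27l was low at 52.0 against 60.1 to 62.3 CPM, and in CP CML replicate 4 Rps25 was at 52.9 against 43.4 to 46.7. In miR-142 KO replicate 4, Rps24 was at 465 against 429 to 441 CPM. In BC CML replicate 3, Rplp2 was low at 112 against 137 to 147 CPM and Rpl3l high at 1.26 against 0.141 to 0.339. In BC CML replicate 5, Rpl35a was at 187 against 150 to 160 CPM. In WT replicate 1, Rpl31 was low at 19.9 against 24.7 to 26.6 CPM and Rps19 at 118 against 130 to 138. In WT replicate 2, Rpl27 was low at 2.58 against 3.32 to 3.72 CPM. In WT replicate 3, Rplp2 was at 158 against 130 to 136 CPM, and in WT replicate 6 Rpl27a was at 69.2 against 54.2 to 59.8 CPM.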

How the results depend on the processing

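No paired analysis was possible because the labels give no replicate numbers that groups share. With upper quartile scaling, members called higher and lower were 4 and 7 in BC CML against CP CML, and 3 and 14 in CP CML against WT, and 11 were lower in miR-142 KO against WT. DESeq2 and the fit of the 12 libraries compared alone each gave 5 lower in BC CML against CP CML, and the latter gave 10 higher in CP CML against WT and 5 other TOP mRNAs higher in BC CML against miR-142 KO, as did no filter on low counts. The cause was not tested. Counting only members that share at most 10% of their mRNA, an alternative chosen after seeing the data that leaves 15 genes, gave 3 higher and 0 lower in BC CML against CP CML, 0 lower in miR-142 KO, 2 and 2 in CP CML against WT, 2 and 1 in BC CML against miR-142 KO, and 0 in the difference of effects.

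Leaving out each mouse in turn, counts of members ranged over 4 to 11 higher and 2 to 6 lower in BC CML against CP CML, 3 to 13 and 5 to 10 in CP CML against WT, 6 to 21 higher in BC CML against miR-142 KO, and 0 to 1 higher in males. The last was 1 without miR-142 KO replicate 3. In BC CML against miR-142 KO, 3 to 9 genes of RNA polymerase I and 5 to 10 other TOP mRNAs were higher. Leaving out mice of groups outside a comparison moved its counts too. The ratio of the summed share was 1.04 for BC CML to CP CML and 1.01 for miR-142 KO to WT with a TMM-scaled sum. The medians of the members moved by less than the spread between replicates. With 50-base stretches, added after seeing the data, the correlation of level and shared sequence was -0.41. Of the 10 highest members per kb, 6 were among the 10 highest by CPM. Low counts of members such as Rpl38, Rps29 and Rpl36a limit what can be called.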
